A study of Mus musculus with 4 samples.

Results

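The genes described here are 10 photoreceptor genes whose products work in the outer segment, the photoreceptor cilium or the matrix around them, and whose human counterparts are linked to inherited retinal disease. They were taken by name (Prph2, Rom1, Prom1, Rp1, Pcare, Impg1, Impg2, Aipl1, Tulp1 and Rpgrip1), all 10 were found among the 20094 genes of the expression matrix, and they were followed in rods and cones of 4 single-cell RNA libraries of mouse retina. Every group carried the Abca4-/-Rdh8-/- genotype on C57BL/6J at 6 weeks of age, so no group had both genes intact. ABCA4 and RDH8 act in the removal of all-trans-retinal from outer segments, and mice without them lose photoreceptors after intense light. The rolipram group was given rolipram, which inhibits phosphodiesterase 4, at 2 mg/kg and was then bleached for 30 min at 10000 lux. The BC11-38 group was given BC11-38, which inhibits phosphodiesterase 11, at 2 mg/kg and was bleached in the same way. The bleached vehicle group had the solvent DMSO and the same light, and the unbleached vehicle group had DMSO and was not bleached. Retinae of the 3 bleached groups were taken 1 day after light, and each group was 1 library that pooled 4 retinae of 2 mice. The comparisons ask what differed in photoreceptors after light and what differed when each inhibitor had been given first.

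The outer segment is a modified cilium that is packed with membrane discs, which are formed at its base and shed at its tip throughout life. Its proteins are made in the inner segment and enter through the narrow connecting cilium, a microtubule axoneme runs up one side, and a proteoglycan matrix surrounds it. Tetraspanins hold the disc rims, and loss of rim, cilium or matrix proteins is a known cause of retinitis pigmentosa, macular dystrophy or Leber congenital amaurosis in people.

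The 4 libraries held 5697 to 7894 cells each, with 28983626 to 44386442 UMIs (unique molecular identifiers, 1 per captured transcript). Rods numbered 2636 in the rolipram, 2306 in the BC11-38, 2488 in the bleached and 2380 in the unbleached vehicle library, and cones 398, 363, 299 and 261 in the same order. Median UMIs per cell were 1213.5 to 1494.5 in rods and 4567 to 7819 in cones. In all 4 rod clusters the 10 rod markers were detected, and in both cone clusters all 9 cone markers. The bleached vehicle library stood apart, because Xist was seen in 0.176% of its cells against 48.1 to 51.6% in the others, so it held almost no female cells. Barcodes shared between libraries numbered 92. Abca4 transcripts were still counted in rods, at 71.2 CPM in the rolipram, 81.7 in the BC11-38, 49.7 in the bleached and 49.8 in the unbleached vehicle library, and Rdh8 had 6, 9, 13 and 19 UMIs, but 3′ tags outside a deleted part do not check the deletion. CPM is the UMIs of a gene per 1000000 UMIs of its cell class, and each interval below is an exact 95% counting interval that holds no variation between mice or libraries. With 1 library per group, no comparison between libraries could be tested, and a difference was counted at 1.5-fold among genes with at least 100 UMIs over both libraries.

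The 150 bases before the start of 4 members are printed because Pcare and Impg2 were each most like the other over cell classes and libraries with Aipl1 next, while Rom1 had the opposite order of libraries in rods to Pcare and Impg2. They are RefSeq sequences of the build GRCm38.p6, 5′ to 3′ on the strand of the gene, with capitals for matches to TAATCC, the core bound by CRX and OTX2, or to TGCTGA, a partial site of NRL and other MAF factors, on either strand.
Pcare, chr17:71752906-71753055, minus strand: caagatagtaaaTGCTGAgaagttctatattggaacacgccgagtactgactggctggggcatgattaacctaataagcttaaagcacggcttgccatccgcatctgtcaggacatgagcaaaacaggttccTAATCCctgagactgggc
Impg2, chr16:56204163-56204312, plus strand: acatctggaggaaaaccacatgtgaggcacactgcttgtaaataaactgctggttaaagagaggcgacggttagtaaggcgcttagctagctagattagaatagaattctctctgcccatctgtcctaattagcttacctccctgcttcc
Aipl1, chr11:72037510-72037659, minus strand: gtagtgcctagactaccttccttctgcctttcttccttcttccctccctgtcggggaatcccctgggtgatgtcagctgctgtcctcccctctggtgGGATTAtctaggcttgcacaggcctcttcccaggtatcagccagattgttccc
Rom1, chr19:8929357-8929506, minus strand: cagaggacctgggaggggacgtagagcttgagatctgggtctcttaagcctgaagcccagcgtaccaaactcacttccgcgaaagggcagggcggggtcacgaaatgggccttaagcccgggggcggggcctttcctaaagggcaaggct
Within 250 bases before the start, TAATCC was found for 3 of 9 members with an entry (Pcare, Aipl1 and Rpgrip1), and for 7.21% of 27025 genes (6.25% of their 32851 promoters of that length). TGCTGA was found for the same 3 of 9, and for 18.0% of genes (16.1% of promoters). The Pcare matches lie 18 to 13 and 138 to 133 bases before the start on the gene's strand. For Aipl1, TAATCC lies 53 to 48 bases before the start on the opposite strand, and TGCTGA lies 187 to 182 bases before it, outside the printed stretch. Matched letters are a description and not a measured binding site.

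As a share of the UMIs of their class (CPM), 8 of the 10 members stood higher in rods than in cones and 1, Tulp1, lower. Cones had more UMIs per cell, so a rod excess below is one of CPM and not of transcripts per cell. Differences between cell classes were the only ones that could be tested with replication, because each of the 4 libraries held all classes. In limma's moderated test with the library as a block, 52.3% of 10500 genes were higher in rods and 20.4% were lower at an adjusted p under 0.05, so the count of members stands against a high background. The median difference of the members was 0.92 on the log2 scale, against 0.40 for all genes tested.

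The disc rim genes were higher in rods in every library. Prph2, which encodes the rim tetraspanin peripherin-2 (chromosome 17, 46910459 to 46924933, mm10), stood in rods at 3632 CPM with rolipram, 3879 with BC11-38, 2917 in bleached vehicle and 3299 in unbleached vehicle mice. In cones it stood at 1341, 1311, 1128 and 1224 CPM in the same order. Rods thus lay 1.45 ± 0.07 higher on the log2 scale (limma estimate ± SE, adjusted p = 1.3e-09, higher in 4 of 4 libraries), and no rod value overlapped a cone value. Rom1, the tetraspanin partner of peripherin-2 (chromosome 19, 8927391 to 8929356), stood at 3204 CPM in rolipram, 3526 in BC11-38, 2314 in bleached vehicle and 3015 in unbleached vehicle rods. Cones had 1056 CPM of Rom1 in the rolipram, 951 in the BC11-38, 1293 in the bleached and 1118 in the unbleached vehicle library. The rod excess of Rom1 was 1.44 ± 0.13 (limma, adjusted p = 4.59e-07), but it ran from 0.84 in the bleached vehicle library to 1.89 in the BC11-38 library, the widest range between libraries among the 8 members that were higher in rods apart from Impg2. Prom1, which encodes prominin 1, a membrane protein of the evaginations where discs form (chromosome 5, 43993620 to 44102032), stood at 897, 797, 1035 and 903 CPM in rods in the same order of libraries. In cones Prom1 stood at 325, 286, 251 and 266 CPM. Its rod excess was 1.68 ± 0.09 (limma, adjusted p = 5.7e-09), and the bleached vehicle library had the highest rod value and the lowest cone value. An exon of Prom1 overlaps Gm16401 on the opposite strand, and whether counting used strand is not given in the sources used here.

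**Figure D1:**
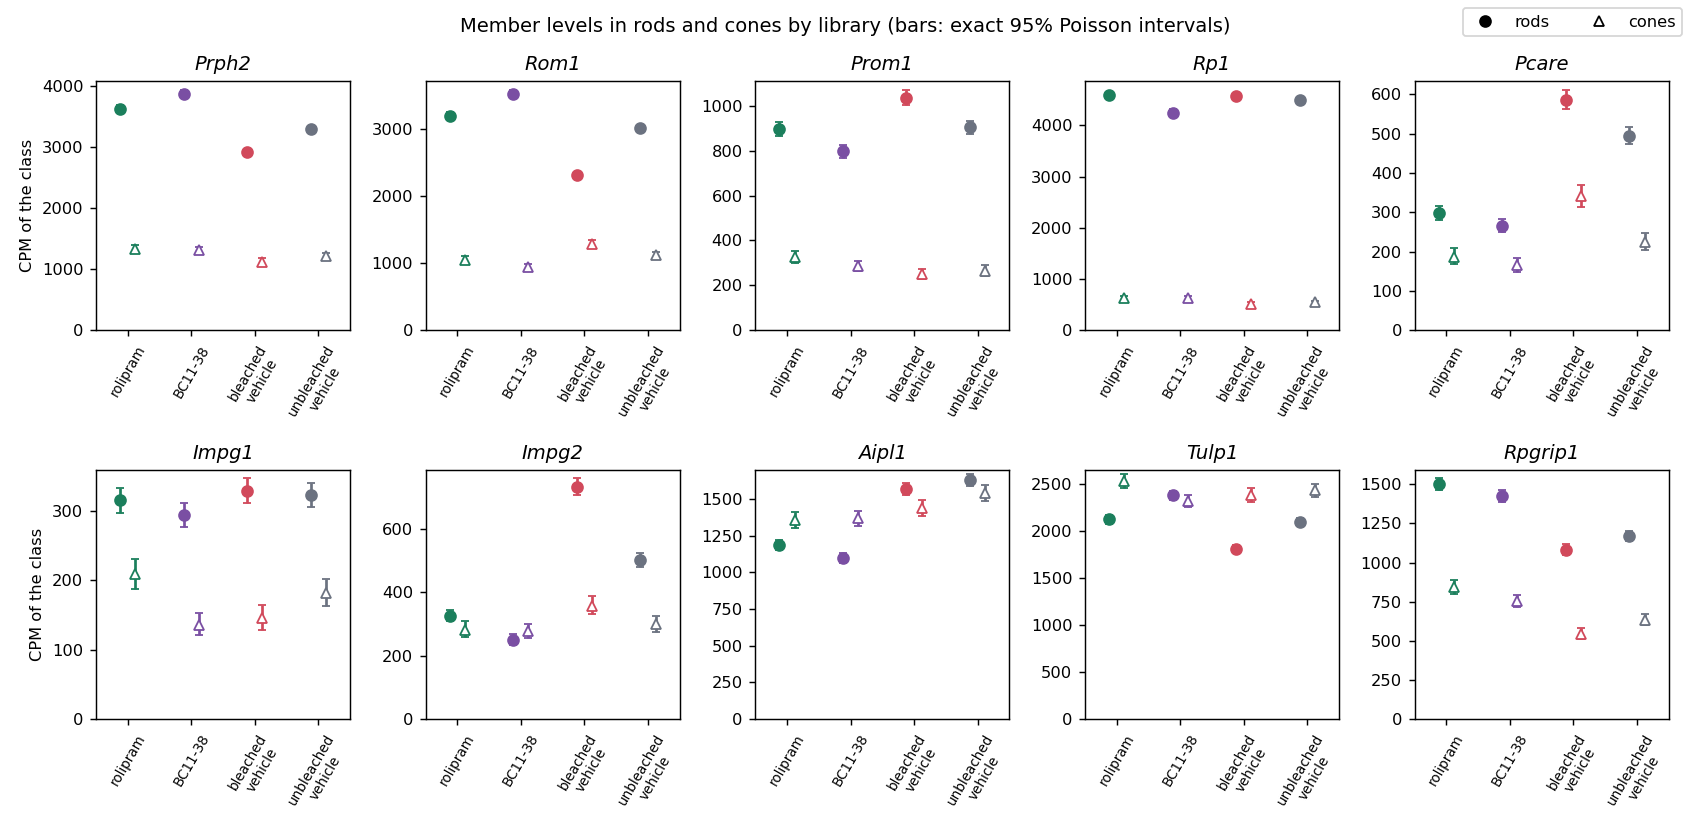
CPM of the 10 members (y axis) in rods (filled circles) and cones (open triangles) of the 4 libraries (x axis), with exact 95% Poisson intervals as bars. Rod points of Prph2, Rom1, Prom1, Rp1, Impg1 and Rpgrip1 lie above all cone points, while those of Pcare, Impg2, Aipl1 and Tulp1 overlap them.

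Rp1 had the largest rod excess of the 10 members. It encodes a microtubule-associated protein of the outer segment axoneme (chromosome 1, 3999557 to 4409241) and stood in rods at 4587 CPM in the rolipram, 4246 in the BC11-38, 4569 in the bleached and 4491 in the unbleached vehicle library. Cone values were 639, 634, 517 and 546 CPM in the same order, and rods were 2.94 ± 0.08 higher on the log2 scale, or 7.68-fold (limma, adjusted p = 4.32e-12). Cones thus held 11.3 to 14.9% of the Rp1 CPM of rods, and how much of it was free rod RNA was not tested. Pcare, which encodes an actin regulator at the site of disc formation (chromosome 17, 71743555 to 71752894), stood at 298 CPM in rolipram, 266 in BC11-38, 586 in bleached vehicle and 494 in unbleached vehicle rods. In cones its values were 187, 165, 340.2 and 226 CPM in the same order. Rods exceeded cones by 0.81 ± 0.09 in all 4 libraries (limma, adjusted p = 2.64e-06), although the lowest rod values lay among the cone values.

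The matrix genes differed from each other. Impg1 and Impg2 encode proteoglycans of the interphotoreceptor matrix. Impg1 (chromosome 9, 80313330 to 80465481) was even over rods, with 315 CPM in the rolipram, 293 in the BC11-38, 329 in the bleached and 322 in the unbleached vehicle library. Cones had 208, 136, 145 and 182 CPM of it, and the rod excess was 0.92 ± 0.10 (limma, adjusted p = 2.27e-06). Impg2 (chromosome 16, 56204313 to 56273756) spread widely over rods, with 326 CPM in the rolipram, 250.4 in the BC11-38, 733 in the bleached and 501 in the unbleached vehicle library. Cones stayed at 283, 277, 358 and 299 CPM in the same order. The rod excess of Impg2 was 0.46 ± 0.14 (limma, adjusted p = 0.0118) in 3 of 4 libraries, since the BC11-38 library had less in rods than in cones. That call was lost without the bleached vehicle library (0.27, adjusted p = 0.0686), without the unbleached vehicle library (0.37, adjusted p = 0.0858), and with TMM scaling, which resets the totals by a trimmed mean over genes (0.16, adjusted p = 0.327).

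In CPM, Aipl1 and Tulp1 were near equal in both photoreceptors, while the cilium gene Rpgrip1 was higher in rods. Aipl1 encodes a cochaperone of the cyclic GMP phosphodiesterase PDE6 (chromosome 11, 72027963 to 72037509) and stood in rods at 1183 CPM in the rolipram, 1097 in the BC11-38, 1566 in the bleached and 1629 in the unbleached vehicle library. Cones had 1354, 1367, 1437 and 1539 CPM. The difference was -0.08 ± 0.08 (limma, adjusted p = 0.42), with rods higher in 2 of 4 libraries, and under TMM scaling it was -0.38 and passed the test (adjusted p = 0.0011). Tulp1, a tubby relative that takes part in moving proteins to the outer segment (chromosome 17, 28351515 to 28365222), stood at 2129, 2382, 1813 and 2101 CPM in rods and at 2539, 2325, 2385 and 2438 CPM in cones in the same order of libraries. It was 0.21 ± 0.08 lower in rods (limma estimate -0.21, adjusted p = 0.032), lower in 3 of 4 libraries. The Tulp1 call was lost without the rolipram, bleached vehicle or unbleached vehicle library, where adjusted p was 0.0912, 0.142 and 0.108. It was also lost with no filter on low genes (limma, adjusted p = 0.0896) and without the library block (0.098). Without the BC11-38 library it held (-0.29, limma, adjusted p = 0.0052). Under TMM scaling it was larger, at -0.51 (limma, adjusted p = 0.000143), so the size of the difference depends on the scaling. Rpgrip1, which anchors RPGR in the connecting cilium (chromosome 14, 52110704 to 52163546), stood at 1502, 1425, 1082 and 1171 CPM in rods. In cones it stood at 841, 752, 544 and 635 CPM, and the rod excess of 0.91 ± 0.07 (limma, adjusted p = 8.31e-08) was the most even over libraries, from 0.83 to 0.99. Rpgrip1 overlaps an exon of Supt16 on the opposite strand, which the counts may not tell apart.

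**Figure D2:**
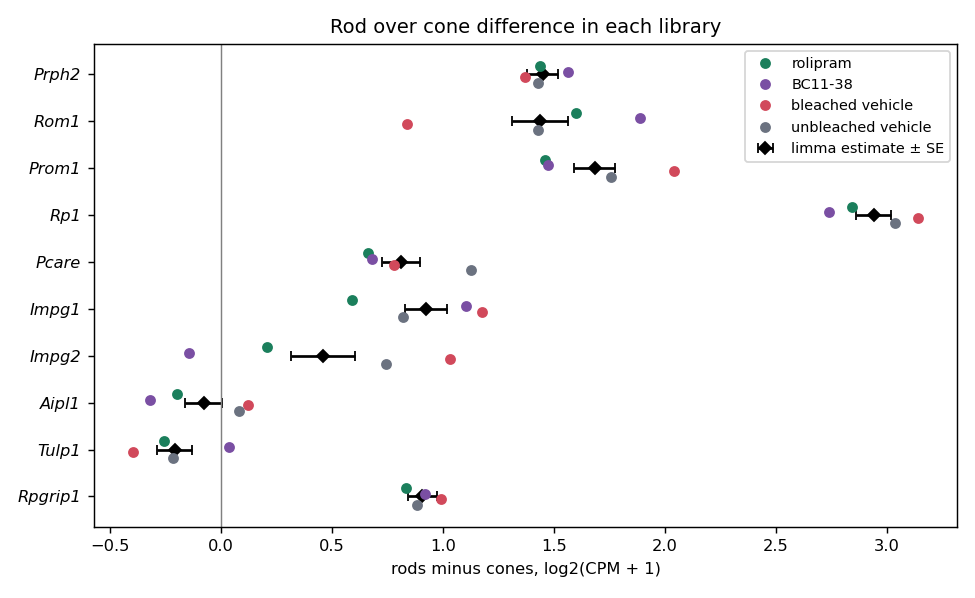
Difference of log2(CPM + 1) between rods and cones (x axis) for each member (y axis), as 1 coloured point per library and a black diamond for the limma estimate ± SE over 4 libraries. Rp1 lies farthest to the right at 2.94, and Aipl1 at -0.08 and Tulp1 at -0.21 lie at or left of 0.

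Between bleached and unbleached vehicle rods the 10 members stayed within 1.5-fold. The bleached vehicle library also held almost no female cells, so light, sex and library cannot be told apart over all rods. In bleached vehicle over unbleached vehicle rods 0 members were counted higher, where 6.42% of 8585 genes were, and 0 were counted lower, where 0.711% were (7.13% in either direction). The members' median log2 ratio was -0.02, against 0.09 for all genes. Impg2 had the largest ratio, 733 against 501 CPM, or 1.46-fold (1.38 to 1.55). Rom1 had the lowest, 2314 against 3015 CPM, a ratio of 0.767 (0.747 to 0.788). Prph2 (0.884), Tulp1 (0.863) and Rpgrip1 (0.924) also stood below 1, and Prom1 (1.15) and Pcare (1.19) above it. Among male rods, taken as those with a Y-linked UMI and none of Xist, the ratio of Impg2 was 1.09, that of Pcare 1.03 that of Rom1 0.801 and that of Rpgrip1 1.06, on the other side of 1 from all rods. Among rods split by cluster, Rpgrip1 was 1.30 in cluster 0 and 1.01 outside it, and Pcare was 1.01 in cluster 0 and 0.839 outside it.

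Between bleached and unbleached vehicle cones 1 member passed 1.5-fold. Pcare stood at 340.2 CPM in bleached vehicle cones against 226 CPM in unbleached vehicle cones, 1.51-fold (1.33 to 1.71), and was the 1 member counted higher, where 6.3% of 5379 genes were. No member was counted lower, where 1.62% of genes were (7.92% in either direction). The Pcare count lay at the threshold, and it was passed under 8 of 12 alternatives, with ratios from 1.39 to 1.57. Impg1 was the lowest, at 145 against 182 CPM (0.797, 0.675 to 0.939). Rom1 stood at 1293 against 1118 CPM (1.16, 1.09 to 1.23), opposite in direction to rods. Among male cones, taken as for rods, the ratio of Rom1 was 1.05, so most of its cone difference was not seen there.

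**Figure D3:**
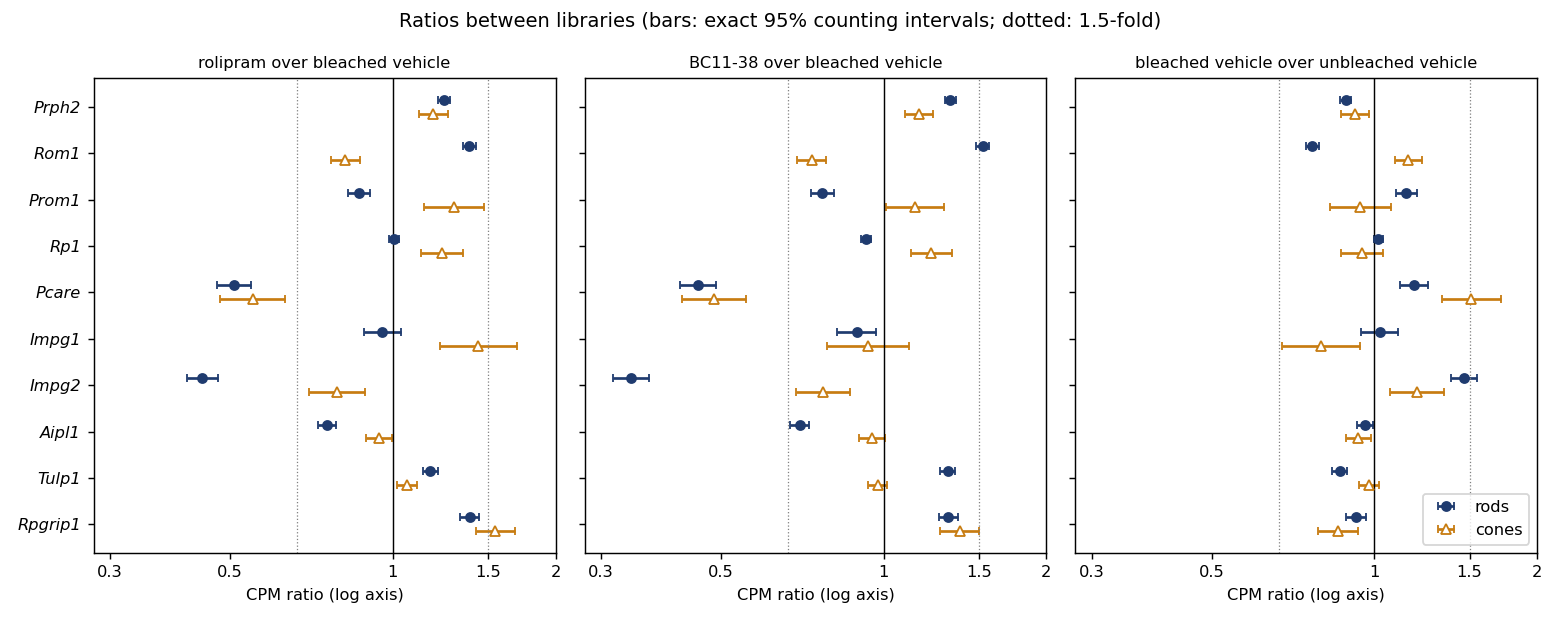
CPM ratios of the 10 members (y axis) between libraries (x axis, log scale) in rods (filled circles) and cones (open triangles), with exact 95% counting intervals as bars and dotted lines at 1.5-fold. Pcare and, in rods, Impg2 lie left of the dotted line in both inhibitor panels, and rod and cone points of Rom1 lie on opposite sides of 1 in all 3 panels.

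Rods of both inhibitor libraries held much less Impg2 and Pcare than bleached vehicle rods. Both inhibitor comparisons use the same bleached vehicle library, so they are not independent of each other. Impg2 stood at 326 CPM in rolipram rods against 733 CPM in bleached vehicle rods, 2.25-fold lower (2.10 to 2.41), and at 250.4 CPM in BC11-38 rods, 2.93-fold lower (2.72 to 3.16). Pcare stood at 298 CPM in rolipram against 586 CPM in bleached vehicle rods, 1.97-fold lower (1.83 to 2.12), and at 266 CPM in BC11-38 rods, 2.20-fold lower (2.04 to 2.38). Both genes also stood lower in both inhibitor libraries than in unbleached vehicle rods, where Impg2 had 501 CPM and Pcare 494 CPM. They were the 2 members counted lower with rolipram, where 8.19% of 8510 genes were (10.3% in either direction), and the 2 counted lower with BC11-38, where 13.9% of 8384 genes were. Their places among all genes were low, at percentile 2.17 for Impg2 and 3.09 for Pcare with rolipram, and 2.22 and 3.58 with BC11-38. Aipl1 followed in the same direction within the threshold, with ratios of 0.755 (0.726 to 0.785) with rolipram and 0.700 (0.673 to 0.729) with BC11-38. Prom1 lay at 0.867 and 0.770, and Impg1 at 0.957 and 0.892.

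Of the other members, 1 passed 1.5-fold upward, in BC11-38 rods. Rom1 stood at 3526 CPM in BC11-38 rods against 2314 CPM in bleached vehicle rods, 1.52-fold higher (1.48 to 1.57), the 1 member counted higher, where 3.59% of genes were. With rolipram it stood at 3204 CPM, 1.38-fold higher (1.35 to 1.42), and 0 members were counted higher, where 2.1% of genes were. Rpgrip1 was 1.39-fold higher with rolipram (1.33 to 1.44) and 1.32-fold with BC11-38 (1.26 to 1.37), Prph2 1.24-fold and 1.33-fold, and Tulp1 1.17-fold and 1.31-fold. Rp1 was level, at 1.004 and 0.929. Over the rods of the 4 libraries Prph2, Rom1 and Tulp1 shared 1 order, highest in BC11-38, then rolipram, then unbleached vehicle and lowest in bleached vehicle rods. Impg2, Pcare and Prom1 had the exact opposite order. The members' median log2 ratio was -0.03 with rolipram and -0.14 with BC11-38, against -0.10 and -0.16 for all genes.

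The inhibitor ratios of Impg2, Pcare and Rom1 stayed on the same side of 1.5-fold among male rods. Among such male rods (594 rolipram, 585 BC11-38 and 1140 bleached vehicle rods), Impg2 was 2.11-fold lower with rolipram and 2.72-fold lower with BC11-38, and Pcare was 1.85-fold and 2.02-fold lower. Rom1 was 1.35-fold and 1.54-fold higher. Without cells of shared barcodes Impg2 was 2.25-fold and 2.92-fold lower, and no member crossed the threshold in rods or cones. Mitochondrial transcripts made up 3.99% of UMIs in rolipram, 4.34% in BC11-38, 3.25% in bleached vehicle and 4.12% in unbleached vehicle rods, and their part in the differences was tested only by leaving mitochondrial genes out of the total, after which no count in rods changed.

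The share of single rods with Impg2 or Pcare also differed. After each rod was thinned to 1000 UMIs, which left out 675 to 745 shallower rods per library, Impg2 was seen in 25.7% of rolipram, 19.8% of BC11-38, 45.5% of bleached vehicle and 34.1% of unbleached vehicle rods. Without thinning the same rods gave 36.2, 35.6, 59.8 and 52.3%. Pcare was seen in 24.4, 23.0, 42.3 and 37.1% of thinned rods in the same order, and in 35.5, 37.0, 58.1 and 55.4% without thinning. Müller glia, which should lack both genes and whose median UMIs were 5542 to 13603 before thinning, had Impg2 in 0.679 to 2.74% and Pcare in 1.10 to 1.95% of cells at the same 1000 UMIs. Each rod share was higher than each glial share, and the part of free RNA in either was not tested.

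Rods fell into clusters that the libraries filled unequally, and the members differed between them. Most bleached vehicle rods (2058, or 82.7%) were in cluster 0, which held 356 rolipram (13.5%), 6 BC11-38 (0.26%) and 907 unbleached vehicle rods (38.1%). Most rods of the other 3 libraries were in clusters 1 and 33, and cluster 33, in which 99.8 to 100% of cells had Xist, held no bleached vehicle cell. The members were left out of the genes used for clustering. Even so, Impg2, Pcare, Aipl1, Prom1 and Rp1 were among the 10 leading genes of cluster 0, and Rp1 also led clusters 1 and 33. Leading genes were ranked against the median of all other clusters, most of them not rods, and so do not by themselves separate cluster 0 from other rods. The contrast of cluster 0 with other rods is given as a description with no test. Impg2 stood in cluster 0 against other rods at 511 against 297 CPM in the rolipram, 806 against 409 CPM in the bleached and 704 against 358 CPM in the unbleached vehicle library. Pcare stood at 466 against 271 CPM, 643 against 329.8 CPM and 638 against 393 CPM in the same order. Both genes were 1.62 to 1.97 times as high in cluster 0 in each of the 3 libraries, and Aipl1 was 1.23 to 1.27 times as high. Rpgrip1 lay the other way, with 1000.3 against 1580 CPM in rolipram, 994 against 1474 CPM in bleached vehicle and 767 against 1456 CPM in unbleached vehicle rods, ratios of 0.633, 0.675 and 0.526. Rom1 (0.736 to 0.783) and Prph2 (0.845 to 0.871) were also lower in cluster 0, and Rp1 was near level (0.915 to 0.954).

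The stress and interferon genes looked at beside the members were Cebpd, Junb, Socs3, Stat3, Irf7, Bst2, Gbp7 and Edn2, chosen after values were seen. Most were higher in cluster 0, but Gbp7 stood at 0 against 0.92 CPM (0 and 3 UMIs) in the rolipram library. Unlike the members, these genes were not left out of the clustering, so they could have helped to form cluster 0. Their excess there is thus not independent of the clustering and is given as a description only. The share of all genes higher in cluster 0 is not given. Cebpd, an acute-phase transcription factor, stood in cluster 0 against other rods at 326 against 27.6 CPM in the rolipram, 484 against 105 CPM in the bleached and 463 against 76.4 CPM in the unbleached vehicle library. Socs3, an inhibitor of STAT3 signalling, stood at 60.9 against 5.22 CPM, 152 against 38.2 CPM and 112 against 18.6 CPM. Bst2, an interferon-induced membrane protein, stood at 29.5 against 7.06 CPM, 209 against 49.5 CPM and 172 against 17.8 CPM. Irf7, an interferon regulatory factor, stood at 15.7 against 10.7 CPM with overlapping intervals in the rolipram library, 187 against 25.5 CPM in the bleached vehicle and 102 against 18.6 CPM in the unbleached vehicle library. The part of these genes in the levels of the members was not tested.

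Inside cluster 0 with rolipram, and outside it with both inhibitors, the differences of Impg2, Pcare and Rom1 were smaller than over all rods. The rods outside it were clusters 1, 26 and 33, of which cluster 33 held no bleached vehicle rod. In rods outside cluster 0, Impg2 stood at 297 CPM in rolipram against 409 CPM in bleached vehicle rods (0.727, 0.637 to 0.832) and at 251 CPM in BC11-38 rods (0.613, 0.536 to 0.702), or 1.38-fold and 1.63-fold lower. Pcare there was 1.22-fold and 1.24-fold lower. In cluster 0, Impg2 was 1.58-fold lower in rolipram than in bleached vehicle rods (1.39 to 1.80) and Pcare 1.38-fold (1.21 to 1.59). The light difference of Impg2 was 1.14-fold in both parts, against 1.46-fold over all rods, and Rom1 outside cluster 0 was 1.20-fold higher with BC11-38, against 1.52-fold over all rods. Rpgrip1 was level, at 1.01 with rolipram in cluster 0, and outside it at 1.07 with rolipram and 0.968 with BC11-38. The 2 members counted lower with rolipram became 0 outside cluster 0, where 3.33% of genes were, and the 2 with BC11-38 became 1, Impg2, where 6.14% were. Within cluster 1 alone Impg2 stood at 294 CPM in rolipram, 255 in BC11-38, 372 in bleached vehicle and 352 in unbleached vehicle rods, so no library was 1.5-fold from bleached vehicle there. Pcare stood in cluster 1 at 269, 282, 344 and 390.3 CPM in the same order.

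**Figure D4:**
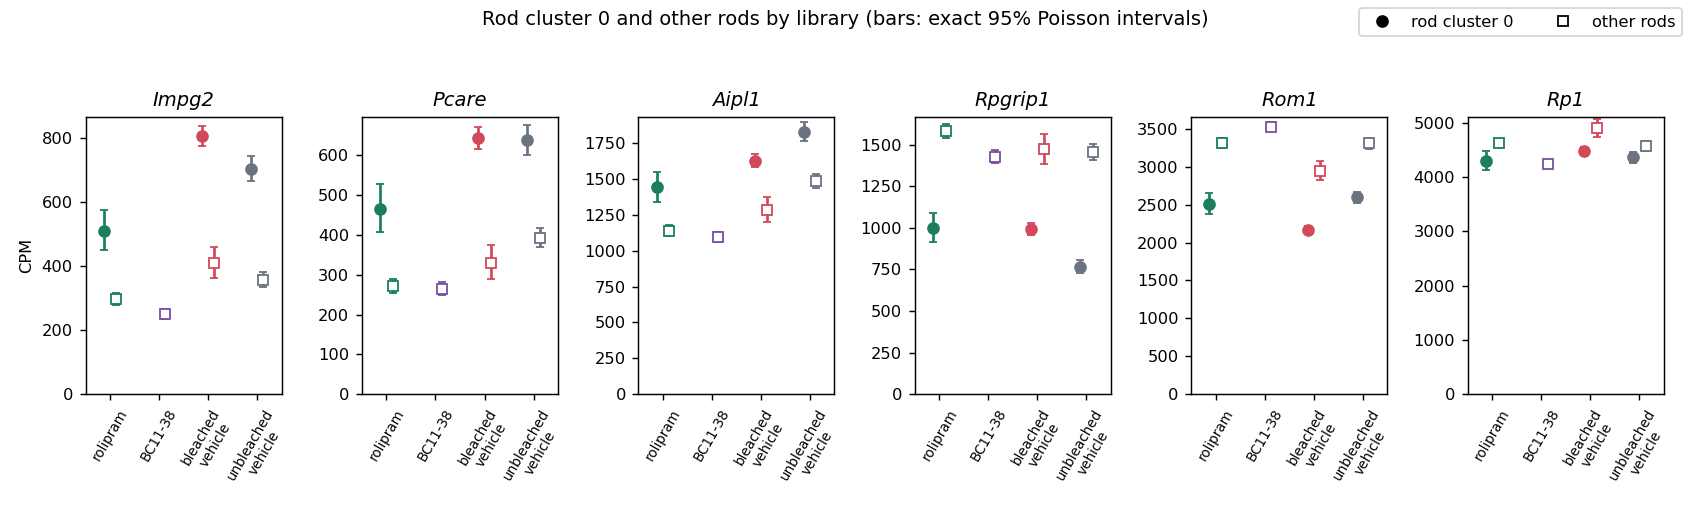
CPM (y axis) of 6 members in rods of cluster 0 (filled circles) and in other rods (open squares) of the 4 libraries (x axis), with exact 95% Poisson intervals as bars. BC11-38 has no cluster 0 point because 6 of its rods were there. Impg2, Pcare and Aipl1 lie higher and Rpgrip1 and Rom1 lower in cluster 0 in each of the other 3 libraries.

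In cones of both inhibitor libraries Pcare was lower past 1.5-fold, as in rods, and Impg2 stayed within it. All bleached vehicle cones were in cluster 11, while 122 to 189 cones of each other library were in cluster 29. Pcare stood at 187 CPM in rolipram cones against 340.2 CPM in bleached vehicle cones, 1.82-fold lower (1.58 to 2.08), and at 165 CPM in BC11-38 cones, 2.06-fold lower (1.80 to 2.36). It was the 1 member counted lower with rolipram, where 7.95% of 5307 genes were, and with BC11-38, where 9.72% of 5515 genes were. Impg2 had ratios of 0.789 (0.700 to 0.890) and 0.773 (0.689 to 0.867). Rpgrip1 was the 1 member counted higher with rolipram, where 5.18% of genes were, at 841 against 544 CPM or 1.55-fold (1.42 to 1.68), and BC11-38 cones had 1.38-fold (1.274 to 1.499), with 0 members counted higher, where 4.22% of genes were. Rom1 lay below 1 in cones, at 0.817 (0.768 to 0.869) with rolipram and 0.736 (0.693 to 0.782) with BC11-38. Impg1 stood at 208 CPM in rolipram against 145 CPM in bleached vehicle cones (1.44, 1.22 to 1.69). The members' median log2 ratio in cones was -0.08 with light, 0.17 with rolipram and -0.05 with BC11-38, against 0.08, -0.04 and -0.08 for all genes.

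Between cones with mostly short-wave opsin and cones with mostly medium-wave opsin, Impg2 was the 1 member that passed the test, with 241 CPM in short-wave against 336 CPM in medium-wave cones of the rolipram library, 260.0 against 306 CPM in the BC11-38, 319 against 415 CPM in the bleached and 257 against 331 CPM in the unbleached vehicle library. It was lower in short-wave cones in 4 of 4 libraries, by 1.29-fold (limma estimate -0.36 ± 0.08, adjusted p = 0.0132), where 1.38% of 7444 genes were lower and 1.3% higher. The test was added after the data were seen, and the call was lost without the rolipram and without the unbleached vehicle library. Impg1 was also lower in 4 of 4 libraries but missed the threshold (-0.30 ± 0.09, adjusted p = 0.118). The cones numbered 223, 234, 118 and 134 short-wave and 174, 128, 137 and 119 medium-wave cells, and 44 bleached vehicle cones had a tie or no opsin UMI, against 1 to 8 in the other libraries. In the bleached vehicle library Pcare stood at 286 CPM in short-wave and 383 CPM in medium-wave cones, and with rolipram Pcare was 1.33-fold lower in short-wave cones and 2.48-fold lower in medium-wave cones. The Rpgrip1 ratio with rolipram was 1.20 in short-wave and 1.79 in medium-wave cones.

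Outside photoreceptors all 10 members were lower than in rods, and Rom1 and Rpgrip1 in bipolar cells and Prom1 in endothelial and amacrine cells lay nearest to their rod levels. In limma's test all 10 were higher in rods than in bipolar cells, where 43.9% of 12641 genes were higher and 36.4% lower, than in Müller glia, where 45.2% of 12970 were higher and 33.9% lower, and than in amacrine cells, where 39.9% of 12948 were higher and 42% lower. Rods exceeded bipolar cells by 2.46 (Rom1) to 5.55 (Rp1), Müller glia by 4.75 (Rom1) to 5.91 (Rp1) and amacrine cells by 2.69 (Prom1) to 5.63 (Rp1) on the log2 scale, with adjusted p of 8.43e-07 or less for each member. Rods came first, cones second and the other classes after them for 8 members, and cones came first for Aipl1 and Tulp1, with overlapping ranges. Bipolar cells came next for 9 members. For Prom1 endothelial cells came next, at 210.1 ± 65.9 CPM (SD, n = 4), and overlapped cones (282 ± 32.3 CPM) and amacrine cells (144 ± 44.6 CPM).

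Against its own rod level in the same library, Rom1 stood at 15.2 to 22.8% in bipolar cells, Rpgrip1 at 9.08 to 11.5% and Prph2 at 6.65 to 8.66%, and the other 7 members at 1.56 to 6.07%. Prom1 stood at 10.7 to 19.3% in amacrine and 11.9 to 32.7% in endothelial cells. In Müller glia the 10 members stood at 1.26 to 4.95%, and the part of free rod RNA in these levels was not tested. Within bipolar cells Rom1 was highest in a cluster led by Cck, Scgn and Gng13, with 966 to 1151 CPM over the 4 libraries, and lowest in clusters led by Neto1 and Ebf1, with 224 to 272 CPM. Rpgrip1 was highest in clusters led by Gsg1, Otor and Grik1, with 268 to 453 CPM, and in one led by Pcdh17 and Slit2, with 334 to 391 CPM, and stood at 32.2 to 69.8 CPM in clusters led by Pcp2 and Trpm1. Within amacrine cells Prom1 was highest in a cluster led by Cartpt, Slc6a9 and Lamp5, with 652 to 876 CPM. That level overlapped the rod levels of Prom1. Other amacrine clusters had at most 143 CPM, apart from one led by Ebf1, Nhlh2 and Slc6a9 with 249.99 to 382 CPM. These clusters were picked by their levels, so no test is given.

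**Figure D5:**
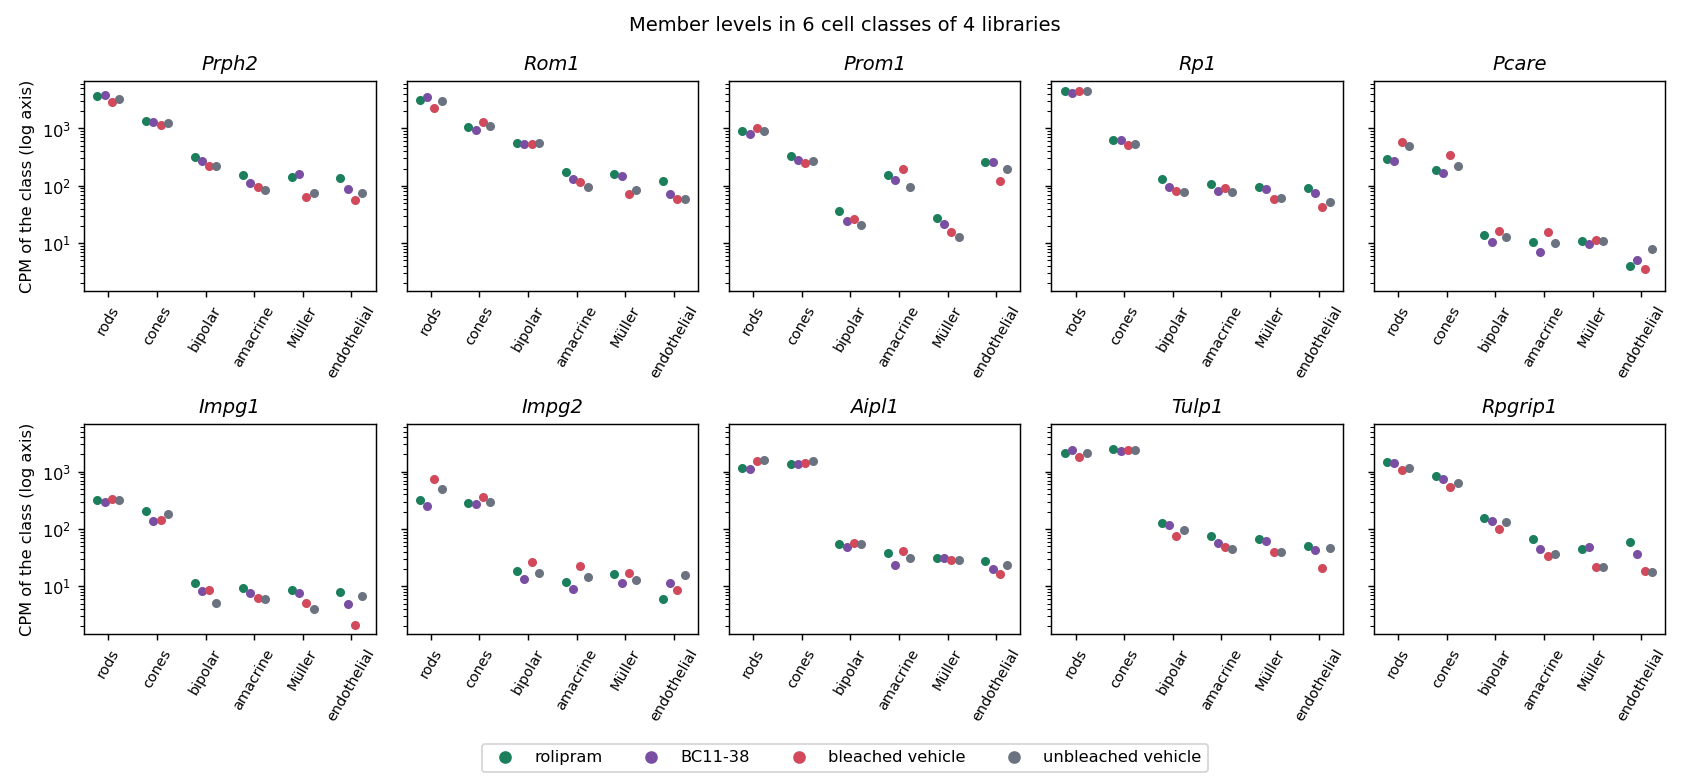
CPM (y axis, log scale) of the 10 members in 6 cell classes (x axis), with 1 coloured point per library. In bipolar cells Rom1 stood at 15.2 to 22.8% of its rod level, and in amacrine cells Prom1 at 10.7 to 19.3%.

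Other genes of the outer segment and cilium were taken as 7 lists with 89 genes, of which 88 were measured. In limma's test of rods against cones 48 of 76 tested were higher and 11 lower, beside 52.3% higher and 20.4% lower over all genes, with a median of 0.58 on the log2 scale against 0.40 for all genes. Connecting cilium and transition zone genes were higher in rods for 15 of 18, with 0 lower (median 0.87), disc and axoneme genes for 7 of 11 with 2 lower, and ciliary transport genes for 18 of 28 with 2 lower. Lipidated protein transport genes were split, with 3 of 8 higher and 3 lower, and of 2 other matrix genes tested 0 were higher and 1 lower. Usher genes had 3 of 5 higher and 2 lower.

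Between libraries the listed genes were mostly level in rods. In bleached vehicle over unbleached vehicle rods 0 of 73 counted genes had a log2 ratio past 1.5-fold in either direction. Over all 8585 genes 6.42% were higher and 0.711% lower in that comparison. Their medians were 0.02 there, 0.05 with rolipram and 0.01 with BC11-38, against 0.09, -0.10 and -0.16 for all genes. Mkks, a chaperonin-like Bardet-Biedl gene, stood lowest after light at 30.4 against 43.9 CPM (0.693, 0.545 to 0.879), and Unc119b, which binds lipidated proteins, highest at 20.3 against 13.5 CPM (interval of the ratio 1.05 to 2.15). With rolipram 1 of 73 was counted higher and 4 lower, and with BC11-38 0 of 71 were higher and 7 lower. Over all genes 2.1% were higher and 8.19% lower with rolipram, and 3.59% and 13.9% with BC11-38. Arl6, the small GTPase that recruits the BBSome coat to membranes, was the lowest with both, at 423 CPM in rolipram against 1055 CPM in bleached vehicle rods, 2.49-fold lower (2.35 to 2.64), and at 357 CPM in BC11-38 rods, 2.95-fold lower (2.78 to 3.15). The highest were Nphp4, a transition zone gene, at 23.9 CPM in rolipram against 15.3 CPM in bleached vehicle rods, and Arl13b, a ciliary GTPase, at 206 CPM in BC11-38 against 138 CPM in bleached vehicle rods. In cones, where 50 of the listed genes were counted, 2 were higher and 1 lower with light, 7 higher and 6 lower with rolipram, and 2 higher and 6 lower with BC11-38. Over all genes in cones 6.3% were higher and 1.62% lower with light, 5.18% and 7.95% with rolipram, and 4.22% and 9.72% with BC11-38. Ift57, an intraflagellar transport gene, stood highest with light and lowest with both inhibitors, at 46.7 CPM in rolipram, 35.8 in BC11-38, 111 in bleached vehicle and 62.9 in unbleached vehicle cones.

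The genes with the most similar levels were sought over 24 points, 6 cell classes in each of 4 libraries, which share libraries and depth, so Pearson's r of log2(CPM + 1) is a description. For Impg2 it was Pcare (r = 0.993) and then Aipl1 (0.984), and for Pcare it was Impg2 and then Aipl1 (0.985). Prph2 was most like Rgs9bp (0.990) and Rpgrip1 (0.990), and Rpgrip1 most like Rgs9bp (0.994) and Prph2. Rom1 was most like Lrit2 (0.994) and Cplx4 (0.991), Prom1 like Ramp3 (0.974) and Pde8b (0.946), Rp1 like Stard7 (0.993) and Ppp1r42 (0.988), and Impg1 like Sag (0.995) and Zdhhc2 (0.992). Aipl1 was most like Fabp12 and Tulp1 (both 0.992), and Tulp1 like Rcvrn (0.998) and Hk2 (0.993). In all 15489 genes were compared.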

How the data were processed

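Retinal cells of 4 pooled libraries were dissociated with papain and sequenced as 3′ tags, per the labels' protocols, which give dark adaptation and tropicamide for bleached mice only. Cell Ranger 6.0.1, Seurat 3.2.2 and mm10 are named without roles, per the submitters' processing notes. The authors deposited the natural log of 1 plus a gene's UMIs scaled to 10000 per cell. The design assumed counts. UMIs were recovered from the deposited values, 100% of which were whole multiples within 0.001 (140410160 UMIs). The sources used here do not give the filters, the strand use or the handling of shared reads, and a further group was not analysed here. All 26543 cells of the deposited matrix belonged to the 4 libraries described.

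Scrublet calls in scanpy 1.11.5 marked 0.127% of rolipram, 0% of BC11-38, 0.0294% of bleached vehicle and 0.0176% of unbleached vehicle cells, against 4.56 to 6.32% expected, so most doublets remain. Cells were clustered on 2000 variable genes without the members, with 30 components, 15 neighbours and Leiden resolution 1 (40 clusters), and named "-like" by markers, written without the suffix. Clusters 1 and 33 held most rods of the rolipram, BC11-38 and unbleached vehicle libraries and cluster 0 those of bleached vehicle. UMIs were summed per class and library. Ratios have conditional binomial intervals, and log2 ratios use a prior of 0.5 UMIs. limma 3.58.1 in R 4.3.3 was fitted to log2(CPM + 1) over genes with at least 100 UMIs, with Benjamini-Hochberg adjustment over all of them, and was tested on simulated data. The 4 libraries are its replicates, of different treatments. Intervals cover counting error only.

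The 10 members and the lists were chosen with earlier results of these data known. All members were named, the 2 most alike genes of each, and in each comparison the listed gene with the largest and with the smallest ratio in rods. Those of cones were added. Gene positions are GENCODE M21 on GRCm38, the assembly of mm10. Promoters matched for 9 members, and Rp1 had no entry.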

Additional observations from a re-analysis of the deposited data

Results flagged for a closer look

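For 6 of the 30 pairs of a member and a comparison, rods and cones lay on opposite sides of 1, with both counting intervals off 1. With 1 library per group the difference between rods and cones was not tested in any of them. Rom1 did so in all 3 comparisons, at 0.767 in rods and 1.16 in cones for bleached vehicle over unbleached vehicle, at 1.38 in rods and 0.817 in cones for rolipram over bleached vehicle, and at 1.52 in rods and 0.736 in cones for BC11-38 over bleached vehicle. Prom1 did so with both inhibitors in the other direction, at 0.867 in rods and 1.30 in cones with rolipram and at 0.770 in rods and 1.14 in cones with BC11-38. Rp1 did so with BC11-38, at 0.929 in rods and 1.23 in cones. Each of the 30 pairs uses the bleached vehicle library, so the 3 comparisons are not independent. Its cones had the most Rom1 and the least Prom1 of the 4 libraries, and its rods had the least Rom1 and the most Prom1. That library held almost no female cells, and among male cones the Rom1 ratio of bleached over unbleached vehicle was 1.05, against 1.16 over all cones.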

How the results depend on the processing

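Of the counts of members past 1.5-fold in rods, these moved. TMM scaling gave 2 higher with rolipram (Rom1 and Rpgrip1) and 2 with BC11-38 (Prph2 and Rom1), rods with at least 2000 UMIs gave 1 higher with rolipram (Rom1) and 1 with light (Impg2), and the mean over cells gave 1 higher with light (Impg2) and 0 with BC11-38. Rods outside cluster 0 gave 0 lower with rolipram, where 3.33% of genes were. With BC11-38 they gave 1 lower (Impg2), where 6.14% of genes were, and 0 higher, where 4.52% were. Rods of cluster 0 gave 1 lower with rolipram (Impg2), where 8.14% of genes were. Shares of all genes under the other settings of this section are not given, so their counts have no background beside them. The settings by rod cluster, cone type, shared barcodes and interferon-induced genes were chosen after the data were seen. In cones, 0 were higher with light under TMM scaling, the mean over cells, a total without mitochondrial genes and male cells alone. With rolipram 0 were higher under the mean over cells and in short-wave cones, where also 0 were lower. With BC11-38, 1 was higher (Rpgrip1) under the mean over cells and in medium-wave cones, where 2 were lower (Rom1 and Pcare). For these the cause was not tested. Across the alternatives, Impg2 in rods stayed 1.38-fold to 2.31-fold lower with rolipram and 1.63-fold to 3.32-fold lower with BC11-38.

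For rods over cones, the count lower was 2 under TMM scaling (Aipl1 and Tulp1), 0 with no filter on low genes, 0 without the library block, and 0 to 1 with 1 library left out. TMM scaling moved the median of all genes to 0.11, against 0.40. Aipl1 ran from -0.143 to 0.00396 with 1 library left out, the highest being without BC11-38. For short-wave over medium-wave cones the count lower was 0 to 1 with 1 library left out, and the values were -0.144 to 0.0217 for Rom1, -0.0193 to 0.113 for Prom1, -0.0667 to 0.132 for Rp1, -0.227 to 0.085 for Pcare, -0.055 to 0.0515 for Tulp1 and -0.0532 to 0.139 for Rpgrip1. All 42 counts and 210 single values of rods over other classes kept their side. No pairing between groups was possible because each group is 1 library and the labels carry no replicate numbers. Cell classes were paired within each library by the library block. No shallow unnamed rod cluster and no interferon-led rod cluster existed, so leaving them out gave no value, and cluster 0 held 6 BC11-38 rods and gave none.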
